A study of Danio rerio with 14 samples.

Results

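Livers of Src(p53-) zebrafish were set against livers of WT zebrafish with the feeding method matched. The Src(p53-) fish carried the Src tyrosine kinase under the liver promoter fabp10a together with a p53 mutation, and the WT fish carried neither. All arrays titled Src(p53-), which were 3, and all arrays titled WT, which were 4, entered the comparison, so that 7 of the 14 liver arrays of the series supplied the estimates. The Src(p53-) arrays came from 1 normal diet (NOR), 1 overfed (DIO) and 1 high fat (FAT) sample, and the WT arrays from 2 NOR, 1 DIO and 1 FAT sample. The other 7 arrays, 3 of HBx(p53-) and 4 of HBx,Src(p53-), added only to the estimate of the spread in that comparison. Among them HBx(p53-) FAT, the only FAT array, added nothing to it.

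All 14 samples were labelled with AB as their strain background, and the fish were 3 months old when feeding began, and livers were taken after 8 weeks. NOR fish received 0.5 mL of Artemia 1 time a day. DIO fish received 2 mL 3 times a day, 12 times the normal amount. FAT fish received 0.22 g of a high fat food 3 times a day beside the normal Artemia. The Src transgene and the p53 mutation were carried together in Src(p53-), so their parts in any difference from WT cannot be told apart. The transgene is driven in hepatocytes by its promoter, while the p53 mutation is not limited to the liver.

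Src is a non-receptor tyrosine kinase of the inner face of the plasma membrane. It is held inactive by the kinase Csk, is switched on by growth factor receptors and integrins, and phosphorylates focal adhesion, junction and signalling proteins. The transcription factor p53 responds to DNA damage and other stress by raising genes that halt the cell cycle or start cell death, and its loss is frequent in liver cancer. The fabp10a gene encodes the fatty acid binding protein of the fish liver, and its promoter is widely used to express a transgene in hepatocytes.

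Levels are log2 values of the robust multi-array average (RMA), so that a difference of 1 is 2-fold. Hepatocyte markers held high levels in both genotypes, with fabp10a between 13 and 13.3 on the Src(p53-) arrays and between 12.7 and 13.1 on the WT arrays. Across 21125 genes, the pair least alike among all 21 pairs of the compared arrays was that of the 2 WT NOR arrays, with a correlation of 0.94 and 3440 genes over 2-fold apart. Matched pairs of Src(p53-) and WT arrays were 2230 genes apart in DIO, 2420 in FAT, and 3217 and 2567 in NOR against WT NOR 1 and WT NOR 2. The spread between WT livers of the same diet was thus as wide as that between the genotypes, and each array stood for 1 fish by the fish numbers in the legends. Sex is not given in the sources used here and was not tested. The vitellogenin gene vtg7 lay between 13.52 and 13.60 on the Src(p53-) arrays and between 13.55 and 13.79 on the WT arrays.

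The gene src served as a check of the labels. Its log2 level was 4.94, 6.01 and 5.01 in Src(p53-) NOR, DIO and FAT livers, against 3.72 and 3.27 in the WT NOR livers, 4.46 in WT DIO and 2.57 in WT FAT. Every Src(p53-) array lay above every WT array, and the difference was 1.45 in NOR, 1.56 in DIO and 2.44 in FAT. The mean was 5.32 ± 0.60 in Src(p53-) (SD, n = 3) and 3.50 ± 0.79 in WT (SD, n = 4), a 3.43-fold difference with a limma estimate of 1.78 ± 0.26 (SE, adjusted p = 0.131). Where the src probes lie relative to the transgene is not given in the sources used here, so endogenous and transgenic RNA cannot be told apart.

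Over all genes, no difference between Src(p53-) and WT passed limma's Benjamini-Hochberg adjusted threshold of 0.05. The call rate was 0% in the higher and 0% in the lower direction, and the lowest adjusted p was 0.0601. At an unadjusted p under 0.05, 662 genes were higher (3.13%) and 410 lower (1.94%) in Src(p53-). Together these were 1072 genes (5.07%), close to the share that this threshold gives with no difference. Of the genes tested, 49.7% were higher in Src(p53-), and the median difference was 0.00. The zero count depended on the model, since 6 genes in the higher and 1 in the lower direction passed with diet terms shared over all 14 arrays, and 9 and 1 passed with no diet term.

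The sign of the difference was the same in all 3 diets for 2685 genes in the higher direction (12.7%) and for 2651 in the lower direction (12.5%). The Src(p53-) arrays lay wholly above the WT arrays for 688 genes (3.26%) and wholly below for 543 (2.57%). With so few arrays, the same sign and full separation also arise without a difference between the genotypes. These counts were not tested against that. A difference of at least 2-fold in every diet was found for 53 genes in the higher (0.251%) and 17 in the lower direction (0.0805%), and 47 and 13 of these also had arrays that did not overlap. Across genes, which are not independent replicates, the difference in NOR had a correlation of 0.17 with that in DIO and -0.15 with that in FAT, and DIO and FAT had 0.07. The NOR value draws on the 2 WT NOR arrays, and no array is shared between diets. The genes described next are among those that held their sign across diets.

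The genes with the largest moderated t among those with separated arrays were led by plxna3, SPOP, akr1a1a and ptprc, none of which passed the adjusted threshold. plxna3 encodes a plexin, a receptor for semaphorin guidance signals. Its level was 5.62, 5.23 and 5.97 in Src(p53-) NOR, DIO and FAT, against 2.86 and 1.83 in WT NOR, 2.22 in WT DIO and 2.52 in WT FAT. The difference of 3.25 ± 0.32 (adjusted p = 0.0601) was 9.49-fold and lay between 3.00 and 3.45 in each diet, the least variable across diets of these genes. SPOP, under an upper-case symbol of the annotation, belongs to the family of adaptors that bring substrates to a cullin ubiquitin ligase. It stood at 7.05, 6.66 and 6.67 in Src(p53-), against 3.16, 2.73, 3.57 and 4.02 in WT NOR 1, WT NOR 2, WT DIO and WT FAT. Its difference was 3.36 ± 0.38 (adjusted p = 0.0601), or 10.3-fold. The gene with the lower-case symbol spop is a separate entry and stood between 5.54 and 5.94 in Src(p53-) and between 5.82 and 6.17 in WT, with arrays that overlapped.

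The rest of that group had varied functions. akr1a1a, an aldo-keto reductase that reduces aldehydes, was at 8.61, 8.97 and 9.09 in Src(p53-) and at 6.21, 6.67, 6.38 and 7.56 in WT (difference 2.11 ± 0.26, adjusted p = 0.0737). xkr9, of the XK family of membrane proteins, was at 4.86, 6.16 and 5.70 in Src(p53-) and between 2.13 and 2.64 in WT (3.00 ± 0.41, adjusted p = 0.0973). For both genes the lowest Src(p53-) array lay well above the highest WT array. ecm1b, a secreted matrix protein, was at 7.07, 7.73 and 7.84 in Src(p53-) and between 5.50 and 6.81 in WT (1.41 ± 0.19, adjusted p = 0.0973). ndufa4a, which encodes a subunit associated with the respiratory chain, was at 10.52, 10.74 and 10.53 in Src(p53-) and between 8.43 and 9.43 in WT (1.72 ± 0.25, adjusted p = 0.131). The 3 Src(p53-) livers lay within 0.22 of each other for ndufa4a and the WT livers within 1.01. chrna1, a subunit of the muscle acetylcholine receptor, differed by 2.03 ± 0.29 (adjusted p = 0.119), and rdh8a, a retinol dehydrogenase, by 1.62 ± 0.23 (adjusted p = 0.13).

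**Figure D1:**
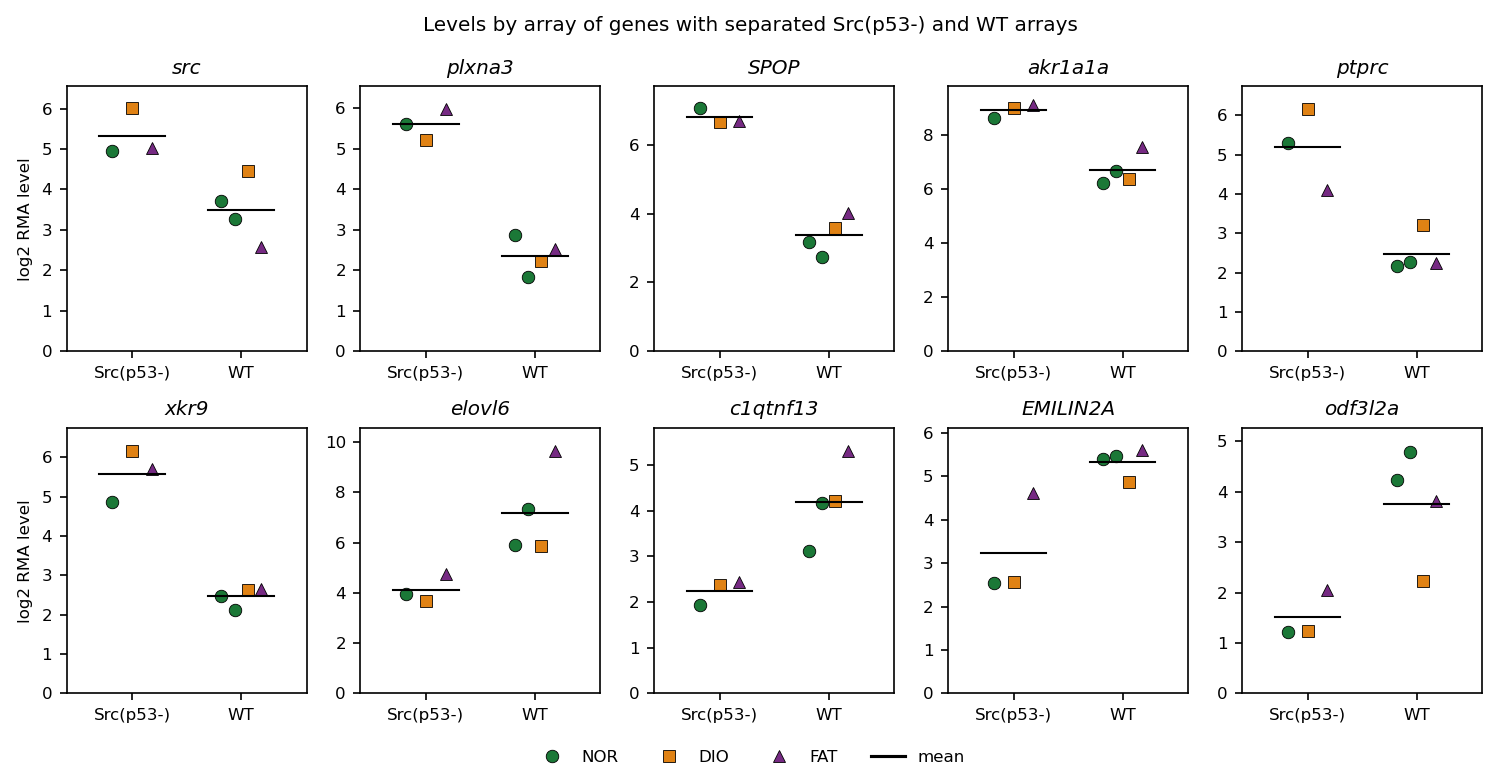
log2 RMA level of 10 genes on the 3 Src(p53-) arrays (left in each panel) and the 4 WT arrays (right), with the diet as the marker and the group mean as the bar. In each panel the arrays of the genotypes do not overlap. src, plxna3, SPOP, akr1a1a, ptprc and xkr9 are higher in Src(p53-), and elovl6, c1qtnf13, EMILIN2A and odf3l2a are lower.

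The largest differences among genes over 2-fold higher in every diet were those of SPOP, raly, plxna3, ftr84, cbln6, xkr9, serpina7 and rxfp3.3a2. raly, an RNA-binding protein of the hnRNP family, was at 6.74, 5.50 and 6.94 in Src(p53-), against 4.26 and 2.99 in WT NOR, 3.40 in WT DIO and 2.28 in WT FAT (3.27 ± 0.67, adjusted p = 0.397). ftr84, a member of the fish finTRIM family, was at 4.94, 3.96 and 6.47 in Src(p53-) and between 1.85 and 2.14 on every WT array (3.14 ± 0.72, adjusted p = 0.507). The WT levels of ftr84 were thus nearly flat while the Src(p53-) levels spanned 2.51 log2 units. serpina7 encodes, in humans, the thyroxine-binding globulin of plasma, and was at 8.43, 9.04 and 8.08 in Src(p53-) and at 4.34, 6.71, 6.01 and 5.97 in WT (2.71 ± 0.77, adjusted p = 0.758). cbln6, a cerebellin, differed by 3.08 ± 0.80 (adjusted p = 0.657) with arrays that overlapped, because 4.37 in Src(p53-) FAT was below 4.70 in WT NOR 1. rxfp3.3a2, a receptor of the relaxin family, was at 7.18, 7.44 and 6.67 in Src(p53-) but ran between 2.41 and 6.14 in WT (2.70 ± 0.98, adjusted p = 0.892).

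Among the genes lower in Src(p53-), elovl6 had the largest difference of those with separated arrays and a usual gene name. It elongates saturated and monounsaturated fatty acids during fat synthesis. Its level was 3.93, 3.69 and 4.73 in Src(p53-) NOR, DIO and FAT, against 5.90 and 7.35 in WT NOR, 5.86 in WT DIO and 9.66 in WT FAT. The difference was -2.69, -2.17 and -4.93 in the 3 diets and -3.20 ± 0.67 over all (9.21-fold, adjusted p = 0.419). c1qtnf13, a secreted protein of the C1q and TNF related family, was at 1.93, 2.37 and 2.43 in Src(p53-) and at 3.12, 4.16, 4.21 and 5.31 in WT (-2.1 ± 0.38, adjusted p = 0.298). Like elovl6, it was highest in WT FAT. EMILIN2A, of the emilin family of matrix glycoproteins, was at 2.53, 2.56 and 4.63 in Src(p53-) and between 4.87 and 5.61 in WT (-2.15 ± 0.39, adjusted p = 0.298). odf3l2a, of the outer dense fibre family, was at 1.22, 1.24 and 2.06 in Src(p53-) and at 4.23, 4.79, 2.22 and 3.83 in WT (-2.14 ± 0.40, adjusted p = 0.315).

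The other genes lower in Src(p53-) by the moderated t had smaller differences. tamalin, a scaffold protein, had -1.6 ± 0.36 (adjusted p = 0.506), mdga2a, a cell adhesion protein of the nervous system, had -1.53 ± 0.35 (adjusted p = 0.507), and eef2a.2, a translation elongation factor, had -1.53 ± 0.35 (adjusted p = 0.507). ap3s1, an adaptor of vesicle traffic, had -0.99 ± 0.22 and pcbp4, an RNA-binding protein, had -0.95 ± 0.21 (adjusted p = 0.506 for each). taar20i, a trace amine receptor, had -0.84 ± 0.20 (adjusted p = 0.55) with levels between 0.93 and 1.17 in Src(p53-) and between 1.31 and 2.39 in WT.

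The genes with the largest differences among those over 2-fold lower in every diet included ugt5a1, cyp2x9, farsa, sppl2 and trdmt1. ugt5a1, a UDP-glucuronosyltransferase that conjugates drugs and hormones, was at 4.15, 3.90 and 4.68 in Src(p53-) and between 6.32 and 6.81 in WT. The 4 WT arrays of ugt5a1 lay within 0.49 of each other, but its difference of -2.30 ± 0.92 had an adjusted p of 0.961, since the SE also takes in the spread of the HBx(p53-) and HBx,Src(p53-) arrays. cyp2x9, a fish cytochrome P450, was at 3.19, 4.62 and 5.67 in Src(p53-) and at 6.13, 6.50, 6.25 and 7.67 in WT (-2.34 ± 0.61, adjusted p = 0.657). farsa, the alpha subunit of phenylalanyl-tRNA synthetase, was at 8.10, 6.77 and 7.05 in Src(p53-) and between 8.46 and 10.23 in WT (-1.95 ± 0.72, adjusted p = 0.911). sppl2, an intramembrane protease, had -2.03 ± 0.74 (adjusted p = 0.898), and trdmt1, a tRNA methyltransferase, had -1.59 ± 0.50 (adjusted p = 0.828) with arrays that overlapped.

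Of the 70 genes at least 2-fold apart in every diet, 14 had clone or placeholder names and were not named by rule. The following were chosen after their values were seen, because several settings called them. si:dkeyp-73d8.6 was at 10.51, 10.70 and 10.31 in Src(p53-), against 3.76 and 7.50 in WT NOR, 6.97 in WT DIO and 4.74 in WT FAT (4.74 ± 0.75, adjusted p = 0.17). Its neighbour by name, si:dkeyp-73d8.9, was at 8.48, 8.9 and 8.65 in Src(p53-) and between 6.37 and 7.27 in WT (1.73 ± 0.21, adjusted p = 0.0737). In the lower direction, si:ch211-194p6.12 was at 2.32, 2.83 and 2.15 in Src(p53-) and at 7.48, 5.87, 6.28 and 8.29 in WT (-4.62 ± 0.51, or 24.6-fold, adjusted p = 0.0601). zgc:113142 was at 2.96, 3.62 and 3.53 in Src(p53-) and at 5.37, 5.60, 6.26 and 7.15 in WT (-2.89 ± 0.36, adjusted p = 0.0737). For each of these 4 genes the gap between the genotypes was wider than the range of the Src(p53-) arrays.

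Leukocyte markers were higher in Src(p53-) livers as a list. Of 26 measured markers 22 were higher, with a median difference of 0.50 beside 0.00 over all genes, and 9 were higher and 0 lower at an unadjusted p under 0.05 (all genes 3.13% and 1.94%). The mean level of the list was 3.86, 4.07 and 3.68 on the Src(p53-) NOR, DIO and FAT arrays, against 3.08 and 3.31 in WT NOR, 3.48 in WT DIO and 3.3 in WT FAT, so the arrays did not overlap. The median difference was 0.48 in NOR, 0.40 in DIO and 0.12 in FAT. None of the list's members passed the adjusted threshold. In whole liver, more leukocytes and more RNA of these genes per cell cannot be told apart.

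ptprc, the pan-leukocyte phosphatase CD45 that acts on kinases of the Src family, led the list. It was at 5.29, 6.17 and 4.11 in Src(p53-), against 2.16 and 2.27 in WT NOR, 3.22 in WT DIO and 2.26 in WT FAT (2.67 ± 0.34, 6.38-fold, adjusted p = 0.0737). With the mean of its probe sets in place of the one with the highest mean, its difference was 1.56 (adjusted p = 0.409). itgb2, the beta chain of leukocyte integrins, was at 4.17, 4.03 and 3.59 in Src(p53-) and at 3.18, 2.67, 3.27 and 2.72 in WT (0.98 ± 0.28, adjusted p = 0.758). Members chosen after their values were seen included the antigen presentation chaperones cd74a (1.08 ± 0.32) and cd74b (0.97 ± 0.25), and the myeloid transcription factor genes spi1a (1.09 ± 0.37) and spi1b (0.95 ± 0.33). The macrophage genes mpeg1.1, mpeg1.2 and csf1ra differed by 0.61 ± 0.28, 0.77 ± 0.26 and 0.65 ± 0.27, and rac2, a small GTPase of blood cells, by 0.71 ± 0.30. The arrays separated the genotypes for ptprc, itgb2, rac2 and mpeg1.1. By contrast, the neutrophil genes mpx and lyz lay between 1.66 and 2.1 in Src(p53-) and between 1.66 and 2.31 in WT, with no separation, and lck and cd79a, of T and B cells, also overlapped. Levels of mpx and lyz were near or below the median of all probe sets (2.12 to 2.23 on these arrays). Those of lck were too, except 3.22 in Src(p53-) NOR. At such low levels a lack of separation does not show that neutrophils or T cells did not differ.

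The other marker lists showed smaller or less even differences. Hepatocyte markers were higher for 14 of 17 members with a median of 0.12, though for 5 of 17 in FAT, and their mean was 11.44, 11.54 and 11.30 in Src(p53-) and between 10.82 and 11.48 in WT. Endothelial markers were higher for 16 of 19 members, with a median of 0.21. In every diet 8 members were higher and 1 lower (all genes 12.7% and 12.5%), and at an unadjusted p under 0.05 0 were higher and 1 lower. The arrays lay wholly higher in Src(p53-) for 2 members, kdrl among them (all genes 3.26%). They lay wholly lower for 1, the sinusoidal gene stab2 (all genes 2.57%). Levels of stab2 were low, below the median of all probe sets in Src(p53-), at 1.82 to 2.03, and near it in WT. Exocrine pancreas markers were higher for 13 of 18 members with a median of 0.32, a sign that turned (-0.10) without the DIO arrays, and their mean was 4.05, 5.29 and 4.92 in Src(p53-), against 4.5 and 3.81 in WT NOR, 4.16 in WT DIO and 4.72 in WT FAT. ctrb.1, a chymotrypsinogen of that list chosen after its values were seen, differed by 1.04 ± 0.27 (adjusted p = 0.657). Medians of the remaining 8 marker lists lay between -0.13 and 0.06. The part of these cell types in the gene differences above was not tested, and the fabp10a level differed by 0.12 ± 0.16 (SE).

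**Figure D2:**
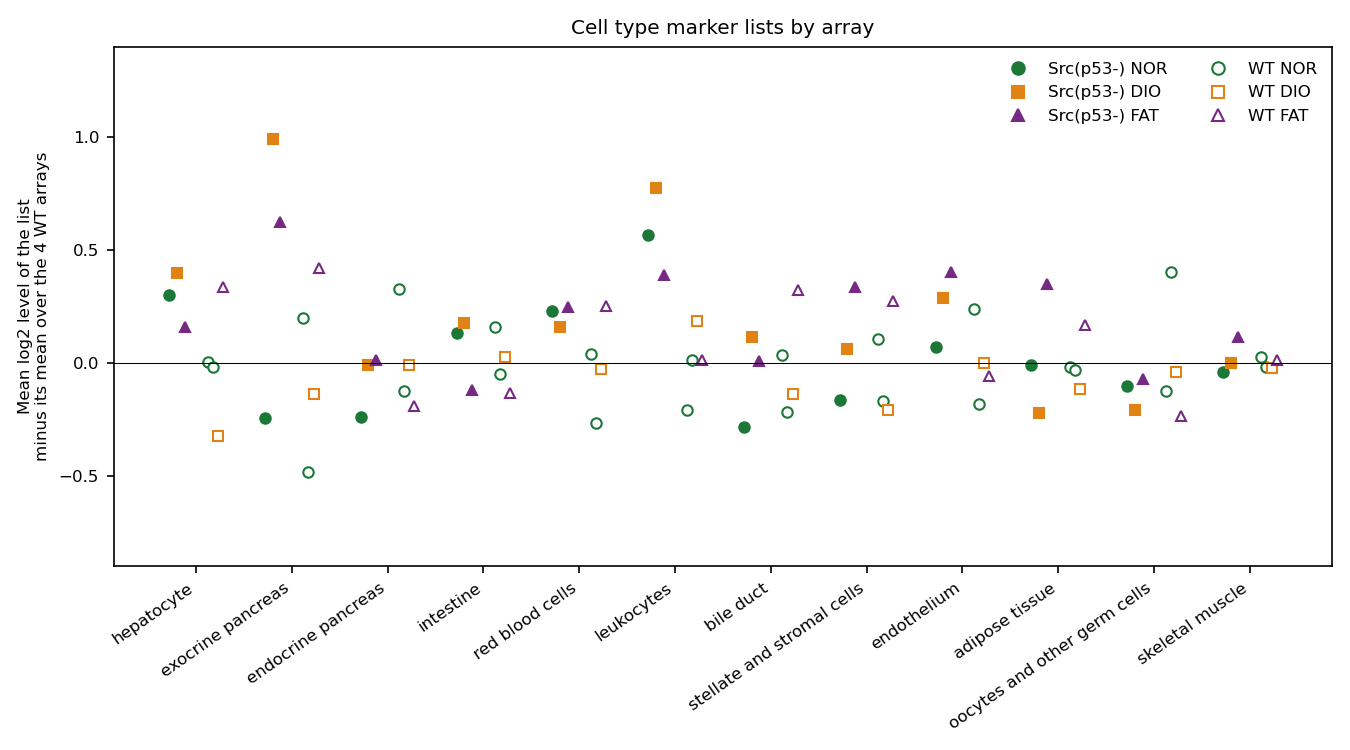
Mean log2 level of each cell type marker list on each array, minus the mean of that list over the 4 WT arrays, with filled markers for Src(p53-), to the left, and open markers for WT. The leukocyte list is the one list of the 12 where all 3 Src(p53-) arrays, at 3.68 to 4.07 before the subtraction, lie above all 4 WT arrays, at 3.08 to 3.48.

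Genes of Src signalling were divided between higher and lower. Of 24 measured members of the Src family and its direct partners, 13 were higher, the median difference was 0.10, and 4, src among them, were higher and 1 lower at an unadjusted p under 0.05 (all genes 3.13% and 1.94%). Beside src, the list was led by cav1, caveolin of membrane pits and a Src substrate, at 7.90, 7.43 and 7.96 in Src(p53-) and at 6.38, 6.68, 6.50 and 7.74 in WT (0.89 ± 0.24, adjusted p = 0.677). ptk2bb, a focal adhesion kinase relative of the Pyk type, differed by 0.65 ± 0.24 (adjusted p = 0.917), and both genes had arrays that overlapped. In the list 3 members, src among them, were separated in the higher direction and 1 in the lower (all genes 3.26% and 2.57%). The paxillin gene pxna, chosen after its values were seen, was at 5.95, 6.40 and 5.97 in Src(p53-) and between 5.25 and 5.59 in WT (0.59 ± 0.25, adjusted p = 0.971). ctnnd1, the junction protein p120 catenin and a Src substrate, was at 7.31, 7.34 and 5.39 in Src(p53-) and between 7.67 and 8.06 in WT (-1.09 ± 0.39, adjusted p = 0.892), a difference carried mostly by the FAT array. The related kinases yes1, fyna and fynb and the inhibitory kinase csk had differences between -0.18 and 0.20, each within 1 SE of 0 and with overlapping arrays.

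Growth factor receptors and their signalling genes were higher for 26 of 45 members with a median of 0.08, which turned to -0.04 without the FAT arrays, and 0 reached an unadjusted p under 0.05. The kinase gene raf1b had the largest moderated t of that list in the direction of its median, with a difference of 0.42 ± 0.24 (adjusted p = 1). p53 targets were lower for 19 of 29 members with a median of -0.16, and 0 members reached an unadjusted p under 0.05 in either direction. By diet 13, 14 and 17 of 29 were higher in NOR, DIO and FAT, with medians of -0.17, -0.13 and 0.10, so the lower average was not shared by FAT. The 3 leading targets were phlda3, a repressor of Akt signalling (-0.44 ± 0.24), ccng1, cyclin G (-0.32 ± 0.20), and tigara, a regulator of glycolysis (-0.46 ± 0.33), with an adjusted p of 1 each. Levels of phlda3 were near or below the median of all probe sets, at 1.36 to 1.52 in Src(p53-) and 1.47 to 2.22 in WT. With the mean of its probe sets, its difference was -0.23. mdm2, the ubiquitin ligase of p53, lay between 4.58 and 5.73 in Src(p53-) and between 4.76 and 5.29 in WT. The cell cycle inhibitor cdkn1a, the best known p53 target, was at 2.22, 3.09 and 5.50 in Src(p53-), against 5.77 and 3.60 in WT NOR, 4.42 in WT DIO and 2.95 in WT FAT, so that its difference was -2.47 in NOR, -1.34 in DIO and 2.56 in FAT. The list of cell cycle and DNA replication genes was higher for 24 of 52 members with a median of -0.02, and cdk4 led it in the lower direction (-0.80 ± 0.36, adjusted p = 0.984).

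Lists of proteins that the liver secretes had more higher than lower members in NOR and DIO but not in FAT, without a called member. Acute phase and complement genes were higher for 27 of 35 members with a median of 0.25, and 8 were higher and 1 lower in every diet (all genes 12.7% and 12.5%). By diet 28, 23 and 17 of 35 were higher in NOR, DIO and FAT, with a median of -0.02 in FAT. c9, the last component of the complement attack complex, was at 11.72, 11.61 and 11.83 in Src(p53-) and at 10.95, 10.85, 10.95 and 11.07 in WT (0.76 ± 0.16, adjusted p = 0.444). The arrays of each genotype lay within 0.22 of each other, so a small difference was separated from the spread. serpina1, the protease inhibitor alpha-1-antitrypsin, had a difference of 2.05 ± 0.97 that rested on WT DIO, at 5.41 beside 10.24 to 10.85 on the other WT arrays and 10.51 to 11.84 in Src(p53-). cfhl1, a complement regulator of the factor H family, differed by 0.81 ± 0.29 (adjusted p = 0.892). Coagulation and other secreted proteins were higher for 23 of 34 members with a median of 0.15, and by diet for 22, 32 and 11 of 34 in NOR, DIO and FAT, with medians of 0.25, 0.37 and -0.18. They were led by ttr, the thyroid hormone carrier transthyretin (0.82 ± 0.31), f7i (0.68 ± 0.27) and f9a (0.55 ± 0.22) of the clotting factor families.

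Genes of inflammation and interferon signalling were mixed, with 23 of 39 higher and a median of 0.05. By diet the medians were 0.17, -0.14 and -0.13 in NOR, DIO and FAT. In every diet 4 members were higher and 5 lower (all genes 12.7% and 12.5%). The arrays were separated for 1 member in the higher and 3 in the lower direction (all genes 3.26% and 2.57%). isg15, a ubiquitin-like protein induced by interferon, was at 5.02, 5.59 and 5.39 in Src(p53-), against 3.39 and 3.89 in WT NOR, 3.71 in WT DIO and 4.02 in WT FAT (1.53 ± 0.44, adjusted p = 0.779). irf1b, an interferon regulatory factor, differed by 3.19 in NOR, 1.00 in DIO and -0.06 in FAT (1.56 ± 0.50, adjusted p = 0.841). The collagen genes col6a2 (1.2 ± 0.30), col6a1 (0.88 ± 0.28) and col4a2 (0.63 ± 0.19) led the matrix and epithelial-mesenchymal list, of which 29 of 48 members were higher with a median of 0.12 (-0.04 without the FAT arrays). Of these, col6a2 separated the genotypes, with 2.82, 2.90 and 4.04 in Src(p53-) and 1.63, 1.32, 2.47 and 2.25 in WT.

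Of 30 genes of fatty acid and triglyceride synthesis, 19 were lower, with a median of -0.13 that turned to 0.06 without the FAT arrays, and 0 were higher and 2 lower at an unadjusted p under 0.05 (all genes 3.13% and 1.94%). By diet the medians were 0.14, -0.10 and -0.46 in NOR, DIO and FAT. The 2 lower members were elovl6 and thrsp, a regulator of lipogenesis, which was at 4.75, 3.24 and 5.66 in Src(p53-) and at 5.33, 5.25, 6.67 and 7.97 in WT (-1.94 ± 0.70, adjusted p = 0.892). elovl2, which elongates polyunsaturated fatty acids, had 0.24 in NOR, -0.51 in DIO and -2.13 in FAT. Fatty acid oxidation genes were higher for 20 of 30 members with a median of 0.16, and by diet for 18, 25 and 13 of 30, with medians of 0.10, 0.56 and -0.12. They were led by the isomerase gene eci1 (0.83 ± 0.37) and the dehydrogenase gene acads (0.70 ± 0.33).

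Genes of amino acid breakdown and the urea cycle were higher for 35 of 52 members with a median of 0.13. By diet 35, 38 and 18 of 52 were higher in NOR, DIO and FAT, with medians of 0.24, 0.38 and -0.12. The leading members act on branched-chain amino acids and histidine: bcat2 (1.23 ± 0.28, adjusted p = 0.522), uroc1 (0.64 ± 0.21) and bckdhb (0.47 ± 0.17). Cytochrome P450 and xenobiotic genes were higher for 35 of 59 with a median of 0.07, and 5 were higher and 3 lower at an unadjusted p under 0.05 (all genes 3.13% and 1.94%). By diet 36, 41 and 20 of 59 were higher, with medians of 0.12, 0.38 and -0.31. cyp2p8 (1.30 ± 0.38), cyp2aa2 (0.87 ± 0.32) and cyp4t8 (0.52 ± 0.18) led the P450 list. In iron handling, 14 of 26 genes were higher with a median of 0.01, and the transferrin receptor genes tfr1b (1.34 ± 0.49) and tfr1a (0.73 ± 0.27) led the list. tfr1a separated the genotypes, with 5.45 to 5.93 in Src(p53-) and 4.46 to 5.32 in WT. It was the 1 member of 26 separated in the higher direction, with 0 in the lower, near the share of all genes (3.26% and 2.57%).

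Among the lists of stress and mitochondrial genes, cat, the peroxide-degrading enzyme catalase, was at 11.99, 12.12 and 12.43 in Src(p53-) and between 11.03 and 11.82 in WT (0.54 ± 0.21, adjusted p = 0.948). nfe2l2a, the transcription factor Nrf2 of the oxidative stress response, differed by 0.74 ± 0.34. The oxidative stress list itself had 23 of 37 members higher with a median of 0.02. At an unadjusted p under 0.05, 2 of its members were higher and 2 lower (all genes 3.13% and 1.94%). By diet its medians were 0.30, 0.03 and -0.12 in NOR, DIO and FAT. The respiratory chain list was higher for 30 of 47 members with a median of 0.09. By diet 40, 30 and 10 of 47 were higher in NOR, DIO and FAT, with medians of 0.34, 0.14 and -0.21, so its sign turned in FAT. ndufs4 of complex I separated the genotypes at 0.48 ± 0.22. In that list 2 members were separated in the higher direction and 1 in the lower (all genes 3.26% and 2.57%). The heat shock factor hsf1 had -0.70 ± 0.24, and hspa5, the main chaperone of the endoplasmic reticulum, was at 7.42, 6.38 and 8.27 in Src(p53-) and between 8.25 and 9.58 in WT (-1.58 ± 0.77, adjusted p = 1). Transcription factors of the liver were higher for 22 of 30 members with a median of 0.18, led by rxraa (1.04 ± 0.46), prox1a (0.72 ± 0.36) and nr0b2b (0.77 ± 0.43). Medians near 0 were also found for the integrated stress response (16 of 30 higher, 0.05), glycolysis (16 of 32, -0.00), cytosolic chaperones (14 of 29, -0.00) and vitellogenin and oestrogen response (6 of 15, -0.03), while circadian clock genes had 0.24 with 21 of 37 higher. All 26 pathway lists had medians within 0.3 of 0, and no list held a called member.

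The averages over diets hid lists whose difference turned between the diets. Each diet held 1 Src(p53-) array, and DIO and FAT held 1 WT array each, so diet and single fish cannot be told apart. Cholesterol synthesis genes were higher in Src(p53-) for 21 of 24 members in NOR, 9 in DIO and 4 in FAT, with medians of 0.85, -0.14 and -1.43. Proteasome genes were higher for 39, 11 and 0 of 41, with medians of 0.75, -0.26 and -0.76. Ribosome biogenesis genes ran the opposite way, higher for 3, 20 and 52 of 64, with medians of -0.83, -0.26 and 0.53. Genes of gluconeogenesis and the fasting response had medians of -0.72, 0.43 and 0.52, and those of endoplasmic reticulum protein processing, of which 19 of 45 were higher over all diets, had 0.19, -0.15 and -0.71. Over all genes, 50.1% were higher in NOR, 52.1% in DIO and 47.8% in FAT, with medians of 0.00, 0.02 and -0.02.

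**Figure D3:**
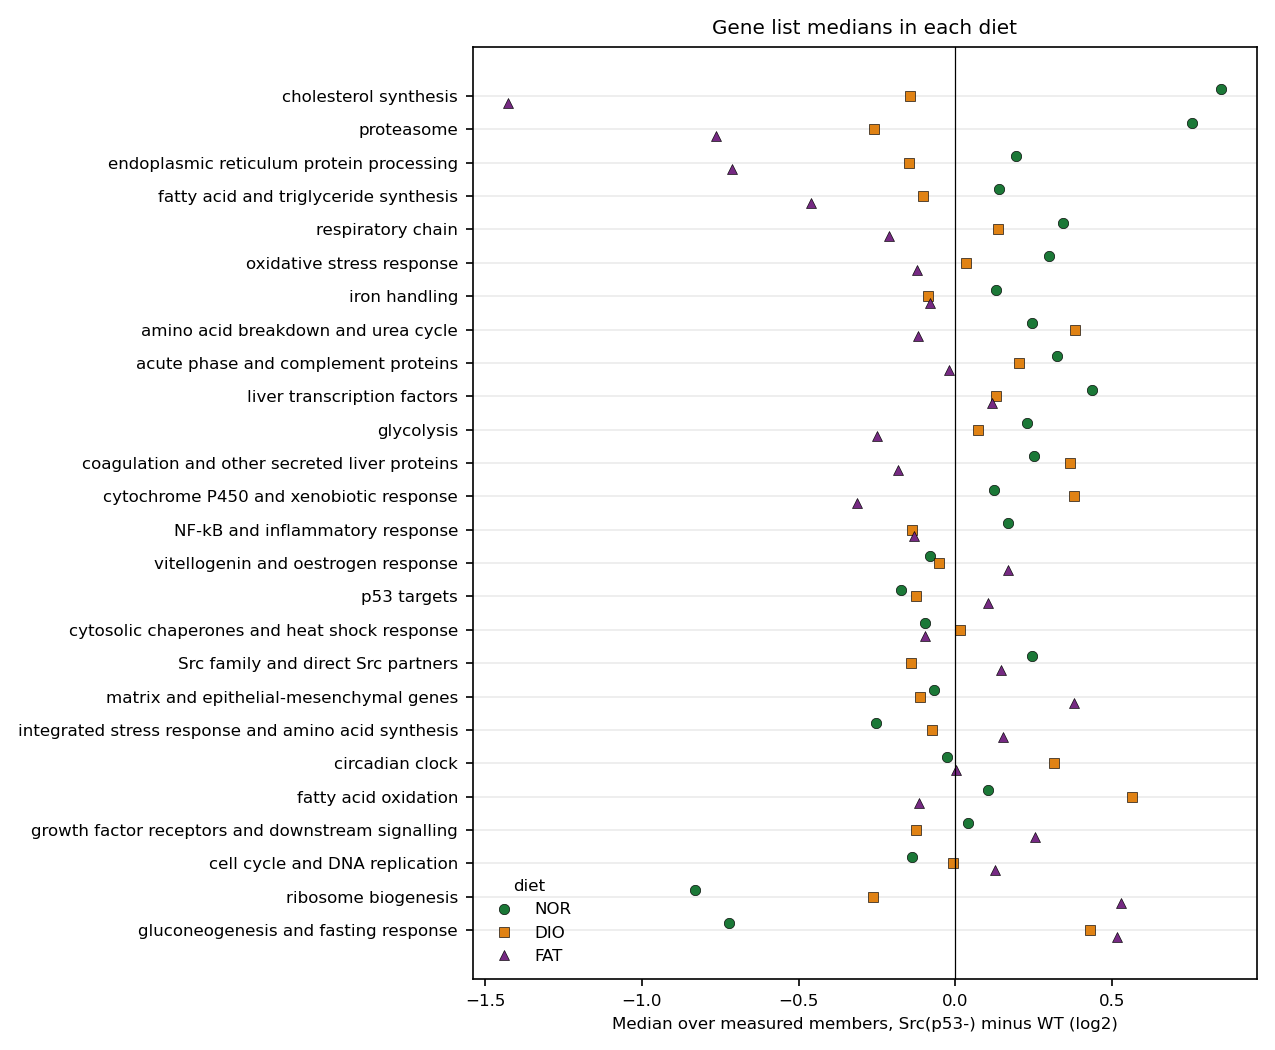
Median difference between Src(p53-) and WT (log2) over the measured members of 26 pathway lists in NOR, DIO and FAT, each from the arrays of that diet. Cholesterol synthesis and the proteasome run from positive in NOR to negative in FAT, while ribosome biogenesis and the fasting response run from negative in NOR to positive in FAT.

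The diet dependence of the difference was measured as the change with an obesity diet (DIO and FAT pooled against NOR) in Src(p53-) minus that in WT. No gene passed limma's adjusted threshold (0%), the lowest adjusted p was 0.484, and 1075 genes reached an unadjusted p under 0.05 (5.09%). The diet dependence was positive for 49.5% of all genes with a median of -0.01, but for 2 of 24 cholesterol synthesis genes (median -1.96), 2 of 41 proteasome genes (-1.27), 59 of 64 ribosome biogenesis genes (0.92) and 22 of 27 fasting response genes (0.95). Within a list these genes share arrays, so they do not count as separate observations.

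The cholesterol list had the largest median diet dependence of the 26 pathway lists. sqlea, the squalene epoxidase, was at 6.21, 2.38 and 2.60 in Src(p53-) NOR, DIO and FAT, against 3.50 and 2.80 in WT NOR, 2.65 in WT DIO and 7.11 in WT FAT (diet dependence -5.45, adjusted p = 0.918). It was thus high in Src(p53-) NOR and in WT FAT and low on the other 5 arrays. The lanosterol demethylase gene cyp51 was at 9.62, 5.77 and 7.19 in Src(p53-), against 7.22 and 7.63 in WT NOR, 5.90 in WT DIO and 10.66 in WT FAT (-4.0, but -1.61 without WT FAT and -6.38 without WT DIO). The genes hsd17b7 (-4.36), fdft1 (-4.17) and lss (-4.09) had the same pattern, and these 5 were chosen after their values were seen. Without WT FAT sqlea had -3.23 and lss -2.46. The mean of the list was 6.80, 5.02 and 5.43 in Src(p53-) and 5.14, 5.98, 5.22 and 7.11 in WT. The 3 members that led the list by average difference were tm7sf2, ebp and hmgcra. ebp had differences of 0.88, -0.66 and -3.81 in NOR, DIO and FAT, and was highest in WT FAT. It had only part of the pattern, because WT NOR 2 lay slightly above Src(p53-) NOR. Its positive difference in NOR thus rested on WT NOR 1. tm7sf2 was lower in every diet (-0.66, -0.31 and -2.39), and hmgcra was lower only in DIO (0.63, -3.45 and 0.61). pmvk, phosphomevalonate kinase, was also an exception. It was higher in Src(p53-) in every diet, with 4.41 to 4.64 in Src(p53-) and 3.51 to 4.12 in WT (0.72 ± 0.22, adjusted p = 0.794).

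The proteasome list had means of 6.57, 5.60 and 5.69 in Src(p53-), against 5.34 and 6.37 in WT NOR, 5.90 in WT DIO and 6.45 in WT FAT. psmd3, of its regulatory lid, was at 8.32, 7.10 and 6.55 in Src(p53-) and at 5.57, 7.09, 7.01 and 7.19 in WT (diet dependence -2.26). psmc6, an ATPase of its base, was at 8.25, 6.90 and 6.96 in Src(p53-) and at 5.61, 7.31, 7.39 and 7.77 in WT (-2.44). Both were highest in Src(p53-) NOR and lowest in WT NOR 1. The size in NOR depended on which WT NOR array it was set against: the median of the proteasome list in NOR was 1.27 against WT NOR 1 and 0.27 against WT NOR 2, that of cholesterol synthesis was 1.88 and 0.54, and that of the fasting response was -1.25 and -0.05. nfe2l1a, of the transcription factor pair that raises proteasome genes, was lower in every diet (-0.79 ± 0.25, adjusted p = 0.828).

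Ribosome biogenesis genes had list means of 5.65, 6.38 and 6.02 in Src(p53-), against 6.27 and 6.75 in WT NOR, 6.59 in WT DIO and 5.47 in WT FAT. nop2, a ribosomal RNA methyltransferase, was at 4.67, 6.58 and 6.50 in Src(p53-) and at 6.60, 7.44, 6.93 and 5.04 in WT (diet dependence 2.91). imp4, of the small subunit processome, was at 3.95, 5.83 and 5.55 in Src(p53-) and at 6.10, 6.51, 6.09 and 4.32 in WT (2.84). These arrays were the mirror of the cholesterol pattern, with the lowest levels in Src(p53-) NOR and WT FAT. rrs1, which led the list by its average difference, had -2.29 in NOR, -1.54 in DIO and 0.13 in FAT. Over all diets 14 of 64 members were higher, with a median of -0.27.

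Among the fasting response genes, pck1, the rate-limiting enzyme of gluconeogenesis, was at 6.66, 10.48 and 11.88 in Src(p53-), against 12.21 and 10.75 in WT NOR, 10.81 in WT DIO and 8.78 in WT FAT (diet dependence 6.20). ppargc1a, a coactivator of that pathway, was at 5.05, 7.91 and 8.19 in Src(p53-) and at 8.70, 6.17, 6.28 and 5.60 in WT (4.5). foxo1a, a transcription factor restrained by insulin, was at 4.19, 9.13 and 8.61 in Src(p53-) and at 8.93, 5.57, 7.61 and 6.11 in WT (5.08). All 3 were lowest in Src(p53-) NOR, and the 2 WT NOR arrays were apart by 2.53 for ppargc1a and 3.35 for foxo1a, so the WT reference in NOR was itself variable. These genes and the proteasome and ribosome biogenesis genes above were chosen after their values were seen, and their adjusted p for diet dependence lay between 0.902 and 0.944. Feeding state at sampling is not given in the sources used here, and its part was not tested.

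**Figure D4:**
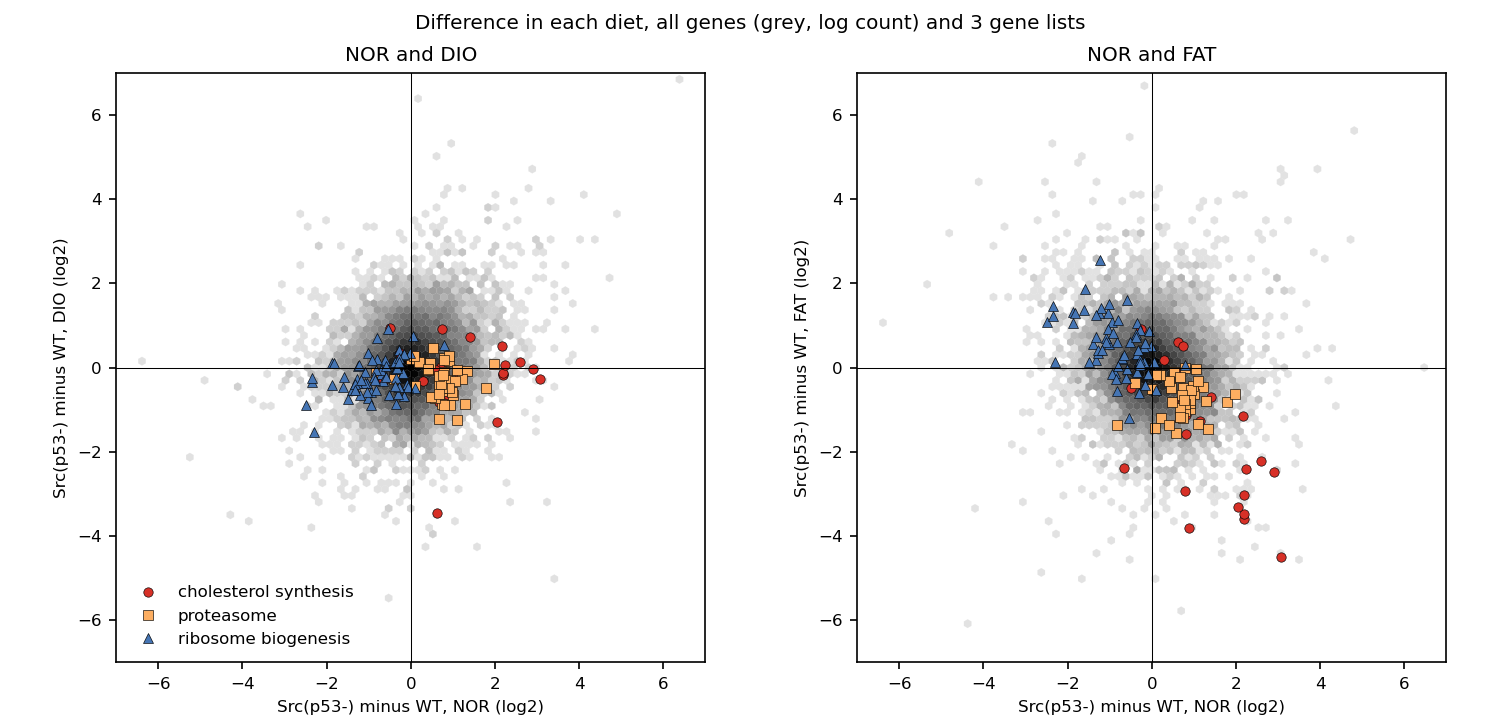
Difference between Src(p53-) and WT (log2) in NOR on the x axis against that in DIO (left) and FAT (right) on the y axis, with all 21125 genes as grey hexagons shaded by log count and 3 lists as coloured markers. In the right panel cholesterol synthesis and proteasome genes lie at the lower right and ribosome biogenesis genes at the upper left, while all genes form a round cloud.

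The single genes with the largest moderated t for diet dependence were of varied function. mapre3a, a microtubule end-binding protein, was at 1.27, 3.51 and 3.43 in Src(p53-), against 2.46 and 2.97 in WT NOR, 1.92 in WT DIO and 2.42 in WT FAT (2.75, adjusted p = 0.484). trim13 and ctnnd2b had 2.59 each (adjusted p = 0.571), and slx1b had 2.57 (adjusted p = 0.784). In the lower direction were taar12b, a trace amine receptor at 4.25, 1.97 and 1.98 in Src(p53-) and between 1.41 and 2.09 in WT (-2.74, adjusted p = 0.484), slc40a1, described with the genes that the study followed, socs4 (-2.65) and clip2 (-2.05, adjusted p = 0.571 for both socs4 and clip2). For taar12b the value rested on Src(p53-) NOR alone, since the other 6 arrays lay between 1.41 and 2.09.

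A list of 14 genes was taken from those that the study followed. It leaves out gck, a glucokinase gene that the study also measured by qPCR. Of these 14 genes, 8 were higher and 6 lower, with a median of 0.04, and 1 had the same sign in every diet. The study picked part of them from these arrays, scd and acat2 among them, so their values are not independent evidence, and followed the others as markers of fat synthesis and the cell cycle. scd, the stearoyl-CoA desaturase of fat synthesis, was at 11.10, 6.0 and 10.65 in Src(p53-), against 4.33 and 11.01 in WT NOR, 11.09 in WT DIO and 12.50 in WT FAT. The 2 WT NOR arrays of scd thus lay far apart, and its diet dependence of -6.90 (adjusted p = 0.944) came to -3.57 without WT NOR 1 and -10.24 without WT NOR 2. slc40a1, the iron exporter ferroportin, was at 9.40, 9.01 and 8.80 in Src(p53-), against 6.31 and 5.79 in WT NOR, 9.53 in WT DIO and 10.51 in WT FAT. It was level across diets in Src(p53-) but low in both WT NOR livers, so that its difference was 3.36 in NOR, -0.52 in DIO and -1.71 in FAT (diet dependence -4.47, adjusted p = 0.484). acat2, an acetyl-CoA acetyltransferase, had a diet dependence of -3.78 and lpin1a, a phosphatidate phosphatase, of 4.19 (adjusted p = 0.944 each).

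HBx(p53-) fish share the p53 mutation but carry HBx, a hepatitis B virus protein, in place of Src. HBx(p53-) and HBx,Src(p53-) were set side by side with Src(p53-) against the same 4 WT arrays, with diet terms shared over all 14 arrays, so these values are not independent of each other. Several leading genes were also higher in HBx(p53-): plxna3 by 2.42, SPOP by 2.38, xkr9 by 2.73, ecm1b by 1.35, akr1a1a by 1.31 and ptprc by 1.72. In HBx,Src(p53-) the same genes stood 1.80, 2.96, 3.01, 1.74, 1.95 and 2.61 above WT. raly, by contrast, was 0.71 above WT in HBx(p53-) and 0.76 in HBx,Src(p53-), beside 3.16 in Src(p53-) in the same model. For raly, Src(p53-) minus HBx(p53-) was 2.45 ± 0.71 (limma adjusted p = 0.872), so that a difference between these lines was not shown. In HBx(p53-) against WT 12 genes were called higher and 2 lower, among them plxna3, SPOP, xkr9 and ecm1b, with 1235 genes at an unadjusted p under 0.05. In HBx,Src(p53-) against WT 97 were called higher and 8 lower, with 2537 at an unadjusted p under 0.05. Src(p53-) against HBx(p53-) gave 1 called gene, zgc:171470, at 8.08 to 8.53 in Src(p53-), and 1036 genes at an unadjusted p under 0.05. zgc:171470 did not differ in that way from WT, whose arrays ran from 7.07 to 9.62.

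Among genes lower in Src(p53-), EMILIN2A (-2.61), odf3l2a (-2.32) and mdga2a (-1.61) were as low or lower in HBx(p53-) against WT. elovl6 (-0.70) and c1qtnf13 (-0.72) had smaller values in HBx(p53-), and -2.76 and -2.07 in HBx,Src(p53-), the other line that carries Src. Src(p53-) minus HBx(p53-) was -2.21 ± 1.18 for elovl6 and -1.28 ± 0.60 for c1qtnf13 (adjusted p = 0.999 each), so that a difference between the lines was not shown. Smaller values in HBx(p53-) than in both lines that carry Src were also found for pcbp4, SPOP, akr1a1a, ptprc and other genes named by moderated t. src itself was 0.50 above WT in HBx(p53-) and 1.04 in HBx,Src(p53-). The clone-named si:ch211-194p6.12 was 4.47 log2 units lower than WT in HBx(p53-) (difference -4.47) and 0.00 apart from WT in HBx,Src(p53-).

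**Figure D5:**
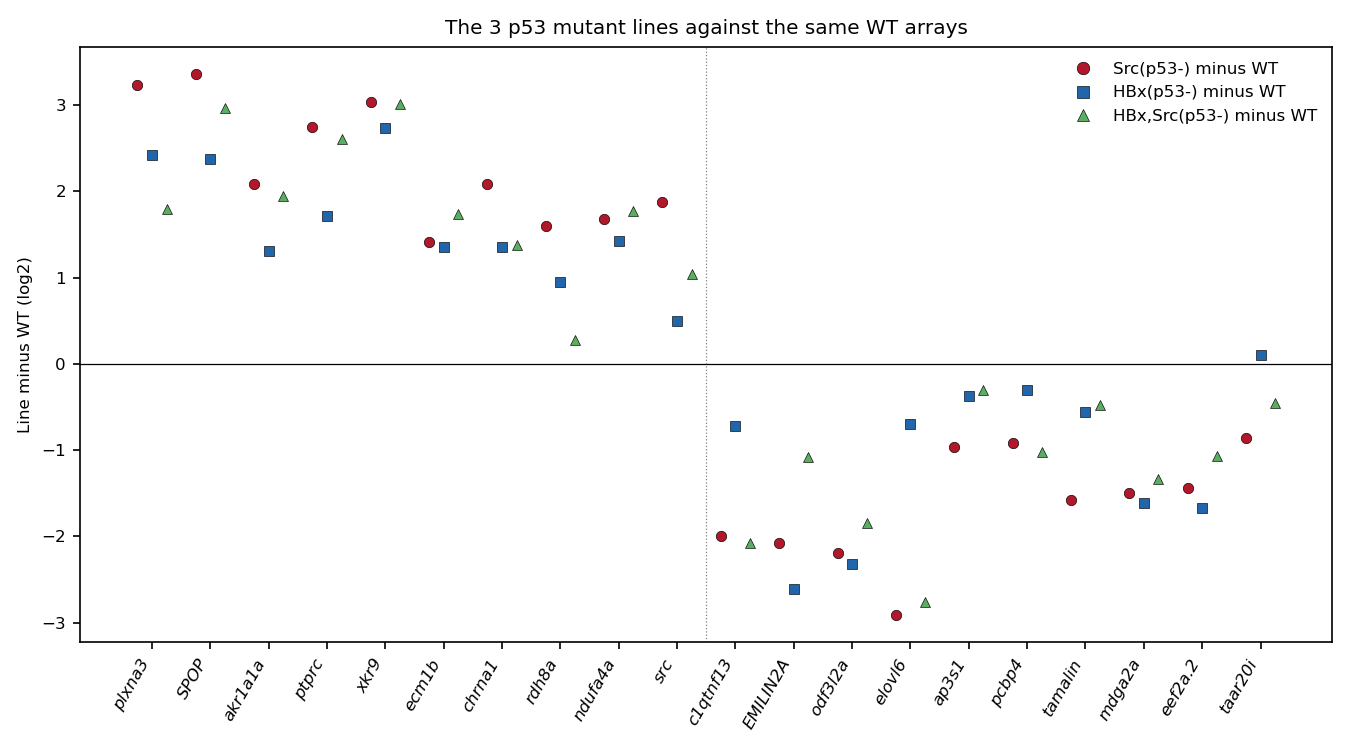
Difference from WT (log2) of the 20 genes named by moderated t, in Src(p53-) (circles), HBx(p53-) (squares) and HBx,Src(p53-) (triangles), from the model with diet terms shared over 14 arrays, so that Src(p53-) values differ slightly from those in the text. The 3 lines share the WT arrays. Most genes lie on the same side of 0 in all 3 lines, with taar20i in HBx(p53-) as the exception. elovl6 and c1qtnf13 are closer to 0 in HBx(p53-) than in both lines that carry Src. The same holds for SPOP, akr1a1a, ptprc, xkr9, ecm1b, ndufa4a, src, pcbp4 and other genes shown, so it is not particular to elovl6 and c1qtnf13.

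The step from HBx(p53-) to HBx,Src(p53-) adds Src and shares no array with Src(p53-) against WT. HBx(p53-) stood at 8.35, 6.27 and 4.36 for elovl6 and at 3.61, 4.75 and 2.22 for c1qtnf13 in NOR, DIO and FAT. HBx,Src(p53-) had no FAT array, so the HBx(p53-) FAT array did not enter this step. In it, elovl6 had -3.26 (adjusted p = 0.211), c1qtnf13 -1.99 (adjusted p = 0.179), ptprc 1.31 (adjusted p = 0.31) and src 0.60 (adjusted p = 0.576), and 0 genes passed the adjusted threshold beside 2023 at an unadjusted p under 0.05. Of the 53 genes at least 2-fold higher in every diet in Src(p53-), 31 were also higher there (58.5%), beside 54.9% of all genes. Of the 17 lower, 9 were lower there (52.9%), beside 45.1% of all genes. Genes with separated arrays gave 410 of 688 (59.6%) and 254 of 543 (46.8%). plxna3 (-0.71), raly (0.09) and ftr84 (-3.18) did not repeat their direction or size on those arrays. The leukocyte list had a median of 0.36 in that step and of 0.25 in HBx(p53-) against WT.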

How the data were processed

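Liver RNA of 14 samples was measured on ZebGene 1.1 ST arrays, 1-colour Affymetrix arrays run on the GeneTitan system. The deposited log2 values were made by the authors with the oligo package's RMA method, which corrects background, normalizes quantiles over all arrays and summarises each probe set. Tool versions, scan dates and the genome build are not given in the sources used here, so no batch was tested and no coordinates are given. RMA sets all arrays to 1 distribution, which hides a shift in total RNA, and probes of close paralogs can share signal. The number of arrays, not read depth, limits the precision, and p-values measure only the spread between these samples.

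Of 75212 probe sets, a platform annotation named 30358 with 1 symbol, 1015 with several and 43839 with none. Symbols of 19550 of the 21125 genes were checked through RefSeq GRCz12tu. For 6365 genes with several probe sets, the one with the highest mean was used. No filter on low values was applied.

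Differences came from limma 3.58.1 (R 4.3.3; lmFit, contrasts.fit, eBayes) over all 14 arrays, with 4 genotypes and with diet terms of the 7 Src(p53-) and WT arrays kept apart from those of the other 7 (6 residual degrees of freedom). Adjusted p is Benjamini-Hochberg over 21125 genes, with 0.05 as threshold. Errors after ± are SE unless SD is stated. Differences in a diet are array values minus WT means. Diet dependence used 8 cell means, DIO and FAT pooled (6 residual degrees of freedom). The script was tested on simulated data.

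Members, 26 pathway lists, 12 marker lists and the study's genes (1278 members, 1179 measured) were chosen with earlier results of these data known. Named genes were the 10 in each direction with the largest moderated t among genes with separated arrays, since none was called, the 8 with the largest difference among those at least 2-fold apart in every diet, the 3 leading members of each pathway list, src, the study's genes and 4 in each direction for diet dependence. Clone-like symbols were left out unless stated. Others were chosen after their values were seen. Alternatives were other diet terms, the 7 arrays alone, the mean of probe sets, a mean level of at least 4, trend and robust priors, median centring, quantile normalization and leaving out each array.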

Additional observations from a re-analysis of the deposited data

Results flagged for a closer look

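In 13 values the highest or lowest of the 4 WT arrays stood apart from the other 3, with a gap over 0.829 of the range. Chance marks about 1 in 20 such groups, 151 genes and list means were looked at, and the WT arrays also differ in diet. The WT DIO array stood apart at 3.22 for ptprc, 5.41 for serpina1 and 6.79 for irf1b. The WT FAT array stood apart at 4.89 for mdga2a, 9.54 for uroc1, 6.39 for hsd17b7 and 5.04 for lss. WT NOR 2 stood apart at 3.75 for pcbp4 and 2.88 for mpeg1.2. WT NOR 1 stood apart at 11.03 for cat, 5.35 for ndufs4, 5.57 for psmd3 and 6.03 for the mean of the integrated stress response list.

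In 16 values, both obesity diet arrays of Src(p53-) moved from NOR in one direction, and both of WT lay beyond both WT NOR arrays in the opposite one. Genes such as pck1, ppargc1a and nop2 moved in opposite directions only against the mean of the WT NOR arrays and are not among them. The size below is the diet change of Src(p53-) minus that of WT on the log2 scale. None passed limma's adjusted threshold where it was tested, and for list means the difference was not tested. It was negative for SPOP (-1.23), elovl2 (-1.56), slc40a1 (-4.47), taar12b (-2.74), clip2 (-2.05), socs4 (-2.65), scd (-6.90) and psmc6 (-2.44). It was positive for odf3l2a (1.92), mapre3a (2.75), trim13 (2.59), ctnnd2b (2.59) and imp4 (2.84). The list means gave -0.38 for the oxidative stress response, -0.45 for the respiratory chain and -1.33 for the genes followed by the study.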

How the results depend on the processing

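No paired analysis was possible because the Src(p53-) arrays carry no replicate numbers. Genes called higher by limma numbered 6 with shared diet terms, 9 with no diet term, 4 with the mean of probe sets, 5 of 8581 genes with a mean level of at least 4, 2 with a trend prior and 1 after quantile normalization, and 0 with the 7 arrays alone, a robust prior or median centring. Genes called lower numbered 1, 1, 0, 2, 1 and 0 under the first 6 settings. Leaving out each array in turn gave 0 to 3 higher calls (3 without HBx(p53-) NOR or DIO, 2 without either FAT array of Src(p53-) or WT, 1 without HBx,Src(p53-) DIO 2) and 0 to 1 lower (1 without either DIO array or HBx,Src(p53-) DIO 2). The calls included plxna3 under 8 of 23 settings, SPOP under 7, xkr9 under 4 and akr1a1a and ptprc under 3 each. Without the FAT arrays of either genotype zgc:171534 and sgk2a were called instead, and without the DIO arrays si:rp71-1h3.1. Genes at least 2-fold higher in every diet numbered 48 to 253 with an array left out, and lower 16 to 133. They numbered 253 and 105 without a FAT array, 126 and 73 without a DIO array, and 235 and 133 without Src(p53-) NOR, where only 2 diets remained. The lower count was 38 without WT NOR 1. Calls for diet dependence ranged from 0 to 2 higher (2 without WT NOR 2) and 0 to 5 lower (5 without WT DIO, lss and hsd17b7 among them, and 1 without WT NOR 2, WT FAT or either HBx,Src(p53-) NOR array). They could not be computed without Src(p53-) NOR. For 89 named genes, 1984 of 2023 values kept their direction and side of the threshold, 39 passed it and 0 reversed. The estimate is the same with another prior, with the 7 arrays alone or without an HBx(p53-) or HBx,Src(p53-) array. Signs could not reverse under those settings. Leaving out either the Src(p53-) or the WT DIO array gave the same fit, and so did either FAT array. The size moved by over 1.5 times under at least 1 setting for 32 of the named genes. With the mean of probe sets ptprc had 1.56, rdh8a 0.88, rxfp3.3a2 1.35, pcbp4 -0.35, mdga2a -0.80 and trdmt1 -0.87, and without Src(p53-) NOR odf3l2a had -1.37 and irf1b 0.47. serpina1 lay between 0.18 without a DIO array and 3.36 without Src(p53-) NOR. Diet dependence moved as far for 9 of 23 genes.

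Alternatives for list medians and for diet dependence of named genes were added after seeing the data. The leukocyte median lay between 0.41 and 0.81. Averages of cholesterol synthesis (-0.98 to 0.56) and the proteasome (-0.52 to 0.25) took either sign. Their diet dependence kept its sign, at -2.48 without WT NOR 2 to -1.34 without WT FAT and at -1.90 without WT NOR 2 to -0.80 without WT NOR 1. That of ribosome biogenesis was 0.45 without WT FAT to 1.35 without WT DIO, and that of the fasting response 0.49 without WT NOR 1 to 1.61 without WT NOR 2. Groups with 1 array took their spread from the other groups.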
